A study of Mus musculus with 2 samples.

Results

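Genes published as targets of the microRNA miR-182, other than *Clock*, were followed in sorted 4T1 cells. Of 9 such genes 8 could be measured. Among these 8, 1, *Pdcd4*, was lower in ALDH-positive cells, against 2.3% of all measured genes. The value of *Pdcd4* comes from a single probe that holds a simple sequence repeat. The 9 genes were *Foxo1*, *Foxo3*, *Mitf*, *Mtss1*, *Adcy6*, *Cttn*, *Fbxw7*, *Pdcd4* and *Rgs17*. They were found by gene name among the probes of the arrays that are not controls, and all their probes were kept, 15 of 55681. Of the 9 genes, 8 were measured, that is, well above background on at least 1 array, among 14880 measured named genes in all.

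The cells were 4T1, a mouse mammary carcinoma line from a BALB/c mouse, grown in culture without treatment. ALDEFLUOR, a dye substrate that marks cells with active aldehyde dehydrogenase (ALDH), was used to sort them into ALDH-negative cells (labelled anti cancer stem cell) and ALDH-positive cells (labelled cancer stem cell). That the second label stands for the sorted cells of high activity was taken from the study's text and design. The RNA of each population was hybridised to 1 array, so every difference given here compares 2 arrays, with no replicate, no test and no spread between cultures.

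A microRNA guides a silencing complex to messenger RNAs that pair with its seed, the bases 2 to 8 from its 5′ end, and the paired messenger is translated less and often degraded. miR-182 is made from a common precursor with miR-96 and miR-183, is abundant in sensory organs and in several carcinomas, and was studied with this cell line as a regulator of *Clock*. The paper reported more miR-182 in ALDH-positive than in ALDH-negative cells. It also reported more *Clock* messenger in ALDH-positive cells of miR-182 knockout clones. The question taken from that model was whether the other targets of miR-182 lie lower in ALDH-positive cells. The arrays measured messenger RNA only, so neither miR-182 itself nor any protein was measured here.

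The mature sequences of the cluster are shown because the seed defines what counts as a target, with the seed in capitals (RefSeq, GRCm38.p6, minus strand of chromosome 6).
mmu-miR-182-5p: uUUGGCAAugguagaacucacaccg
mmu-miR-96-5p: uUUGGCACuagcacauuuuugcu
mmu-miR-183-5p: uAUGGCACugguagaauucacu
miR-182 lies at chr6:30165962-30165986, and no other mature microRNA in the table used had its seed. The seed of miR-96 equals it at 6 of 7 positions and is shared with miR-1271, and that of miR-183 equals it at 5 of 7.

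The probes themselves, 60 bases long, say little about these sites. The letters TTGCCAA, which pair with the seed of miR-182, were searched on the strand of the probe only and stood in 321 of 55681 probes (0.576%). None of the 15 probes of the 9 genes held them, nor did the probe of *Clock*, which says only that the letters are not in those windows. The median log2 ratio was 0.0050 in the 169 measured probes that held the letters and 0.015 in the others.

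As to the arrays, both gave no saturated spot, and 28583 probes were measured, 25901 of them on both. The ALDH-positive array was brighter, with a median log2 ratio of the measured probes of 0.49 before and 0.015 after quantile normalization, and all signals below are normalized intensities unless stated. Ratios are ALDH-positive over ALDH-negative. Each has an error of about 0.20 (log2), which the scanner software derives for the spot and which covers no difference between cultures. A gene stands by its brightest measured probe, and is called lower if its Z-score is at most -2 while its ratio is at most 0.75, or higher if its Z-score is at least 2 while its ratio is at least 1.5. The Z-score sets a log2 ratio against the 250 probes on either side in mean signal. In these arrays of 4T1 cells all 6 epithelial markers listed were measured, and *Krt18*, a keratin of simple epithelium, had signals of 206389 and 231164. *Krt14*, a basal keratin, was higher in ALDH-positive cells (log2 ratio 0.98). Of 7 leukocyte markers 4 were measured. *Cd3e* had signals of 917 and 664, *Csf1r* of 971 and 769 and *Cd68* of 762 and 1032. *Itgam* had signals of 7301 and 3795, on a probe that, like that of *Pdcd4*, holds a simple sequence repeat. The 2 other measured probes of *Itgam* gave log2 ratios of 0.38 and -0.67. *Ptprc*, the common leukocyte antigen, and *Adgre1*, a macrophage marker, were among the markers not well above background on either array. Of 4 endothelial markers 2 were measured, *Kdr* with signals of 7292 and 5394 and *Pecam1* with 27.0 and 31.3. The part of other cell types in the ratios was not tested.

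Among the 8 measured targets, 1 was lower and 0 were higher, while 2.3% of all measured genes were lower and 1.37% higher. The log2 ratio was below 0 for 4 targets and above 0 for 4, against 40.3% of all measured genes below 0, and 4 lay within their own error of 0, against 65.8% of all measured genes. By probe, 1 of 13 was lower (2.88% of all measured probes) and 0 were higher (1.45%), and 7 of 13 lay below 0 (47.2%). The median was 0.014, beside 0.042 over all measured genes, whose middle 50% lay between -0.093 and 0.18. Without *Pdcd4* it was 0.039, with 3 of 7 below 0. Of the 8, 5 lay outside that middle 50%: *Foxo1*, *Foxo3* and *Mitf* above it, and *Adcy6* and *Pdcd4* below it. In sorted populations measured in bulk, fewer cells with a transcript and less of it per cell cannot be told apart.

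**Figure D1:**
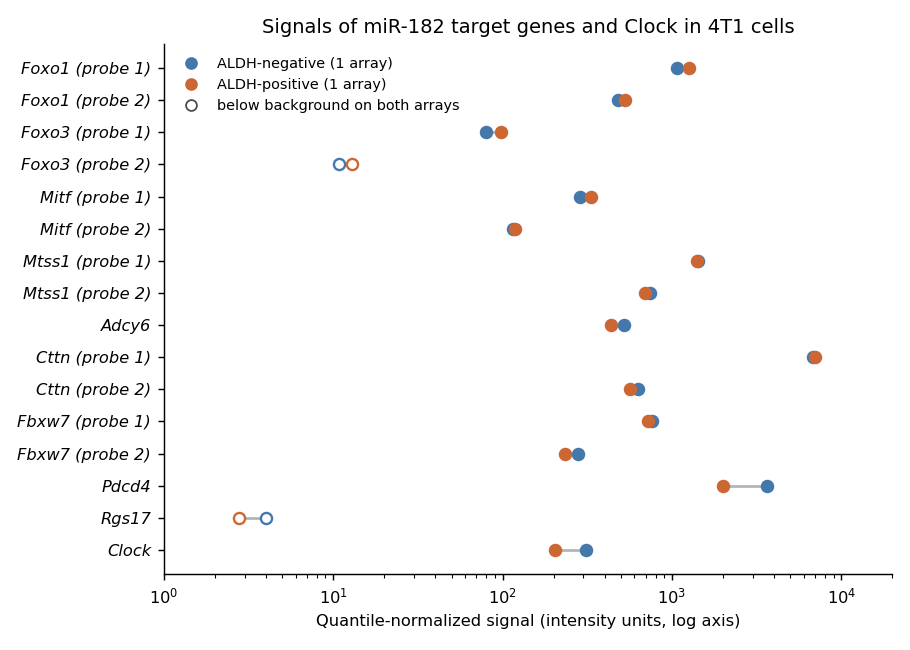
Quantile-normalized signals (intensity units, log axis) of each probe of the 9 targets and of Clock on the ALDH-negative and the ALDH-positive array, 1 point per array; probe 1 is the brighter one, and open points are not well above background on either array. The points of a probe lie farthest apart for Pdcd4 (3653 and 1999), Clock (309 and 204) and Rgs17 (4.0 and 2.8); the points of Rgs17 and of the second Foxo3 probe are open.

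The 3 transcription factors lay above 0. *Foxo1* and *Foxo3* encode forkhead factors that phosphoinositide 3-kinase and AKT signalling keeps out of the nucleus and that activate genes of cell cycle arrest, apoptosis and antioxidant defence. The brighter probe of *Foxo1* (chr3:52150183-52150242, NCBI37, plus strand) had signals of 1064 in the ALDH-negative and 1257 in the ALDH-positive population (log2 ratio 0.24, error 0.20, Z-score 1.33). Its second probe had signals of 483 and 527 (log2 ratio 0.13.) Both probes of *Foxo1* were thus a little brighter in ALDH-positive cells, without reaching the limits.

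*Foxo3* was dim. Its measured probe had signals of 79.7 and 97.7 (log2 ratio 0.29, error 0.21, Z-score 0.80), the highest of the targets. That probe was designed on a cDNA clone, AK143198, at chr10:41967288-41967347. The probe on the reference transcript, at chr10:41905610-41905669, had signals of 10.9 and 13.0 and was not well above background on either array, so the value of *Foxo3* rests on 1 dim probe away from the reference transcript's probe.

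*Mitf* encodes the melanocyte-inducing factor, a helix-loop-helix factor of pigment cells that other cells also express. Its brighter probe had signals of 288 and 331 (log2 ratio 0.20, error 0.21, Z-score 0.81), and its second probe had 115 and 118 (log2 ratio 0.038.) The brighter spot sat in the far eighth of the grid by row or column, as did 24.4% of the measured probes. There, 4.33% of the measured probes were lower and 3.76% higher, against 2.41% and 0.708% elsewhere. With that spot left out, *Mitf* stood at 0.038.

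The 2 regulators of the cytoskeleton gave small ratios. *Cttn* encodes cortactin, which binds branched actin in the cell cortex and in invadopodia. It was the brightest target, with signals of 6827 and 7015 (log2 ratio 0.039, error 0.20, Z-score 0.22). Its dimmer probe gave 630 and 564 (log2 ratio -0.16), so that the probes of *Cttn* pointed in opposite directions, the only such case among the 5 targets with 2 measured probes. *Mtss1* encodes MIM, a membrane-bending protein first described as lost in metastatic cells. Its signals were 1416 and 1406 (log2 ratio -0.010, Z-score -0.066), and 738 and 691 on the second probe (log2 ratio -0.096.)

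Of the 2 signalling genes, 1 was measured. *Adcy6* encodes adenylyl cyclase 6, which makes cyclic AMP downstream of G proteins. Its only probe had signals of 524 and 438 (log2 ratio -0.26, error 0.20, Z-score -1.07), at the 11.8th percentile of the measured genes. It was below 0 by more than its error, but its ratio of 0.836 did not pass the limit. The array files place 15 of the 60 bases of this probe on the genome, at chr15:98420404-98420418. *Rgs17* encodes a regulator of G protein signalling, which shortens the active state of G protein α subunits. Its signals were 4.0 and 2.8, not well above background on either array, so no ratio is given. The files place its probe on the plus strand, while the RefSeq table has the gene on the minus strand. Over the array, 99.5% of 21658 probes with a strand in that table lay on the same strand as their gene, as did 9 of 10 probes of the targets.

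*Fbxw7* encodes the F-box protein that selects MYC, cyclin E, JUN and NOTCH for ubiquitination by an SCF ligase. Its brighter probe had signals of 759 and 722 (log2 ratio -0.072, error 0.20, Z-score -0.28). A probe on another transcript, NM_001177773, had 279 and 232 (log2 ratio -0.26, Z-score -0.89). Both probes of *Fbxw7* lay below 0 and neither passed the limits.

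*Pdcd4*, programmed cell death 4, encodes an inhibitor of translation that binds the helicase eIF4A, and is also a well known target of miR-21. Its signal was 3653 in the ALDH-negative and 1999 in the ALDH-positive population, a ratio of 0.547 (log2 ratio -0.87, error 0.20, Z-score -3.02), at the 2.60th percentile of the measured genes. Before normalization the signals were 3007 and 2419, so that *Pdcd4* was the only measured target whose representative probe was dimmer on the brighter array. For comparison, *Clock*, on which the miR-182 model was built, had signals of 309 and 204 (log2 ratio -0.60, error 0.21, Z-score -2.03), from a single probe in the far eighth of the grid.

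**Figure D2:**
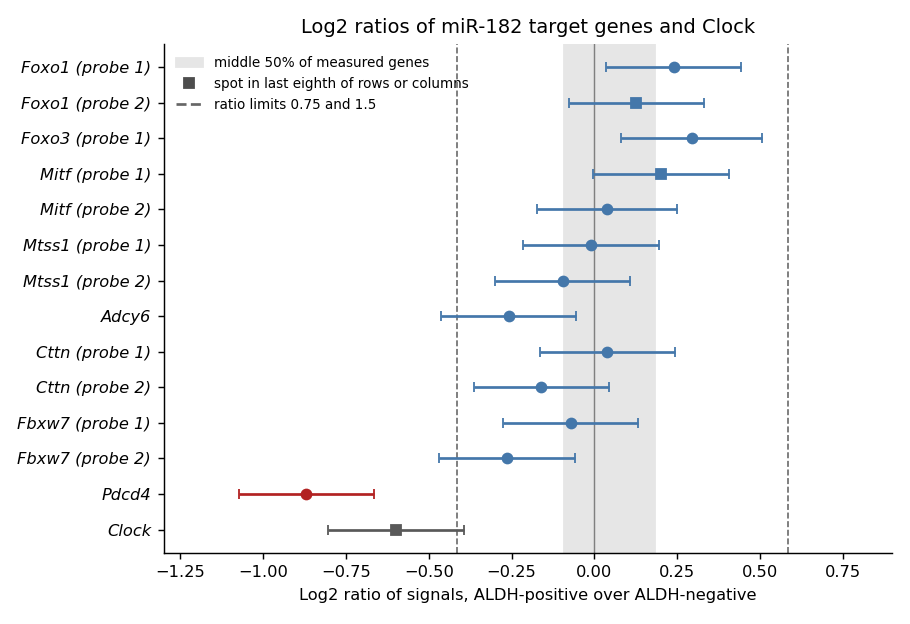
Log2 ratio of signals, ALDH-positive over ALDH-negative, for each measured probe of the targets and for Clock; bars are the scanner error, the grey band is the middle 50% of the measured genes (-0.093 to 0.18), dashed lines are the ratio limits 0.75 and 1.5, and squares are spots in the far (last) eighth of the grid by row or column. Pdcd4 (red) and Clock (dark grey) lie past the lower limit, and the other 12 probes lie between the limits.

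The array has only 1 probe for *Pdcd4* (chr19:54004105-54004164, NCBI37, plus strand), and that probe holds a simple repeat. Its bases 15 to 44 are shown, with parts of probes of *Itgam*, an integrin of myeloid cells, and *Cat*, the peroxide-degrading enzyme catalase, which have further probes. Capitals mark the uninterrupted repeat of adenine and cytosine.
Pdcd4: taaACACACACACACACACACACACACttt
Itgam: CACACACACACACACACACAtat
Cat: tacCACACACACACACACAtgc
The run is 24 bases long in *Pdcd4*, and no other probe of the targets held one of over 5.

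Every measured probe with such a run of 16 or more bases was lower in ALDH-positive cells, 34 of 34, against 2.76% of the other measured probes. Their median log2 ratio was -0.93, with quartiles of -0.98 and -0.86, beside 0.015 in the others. *Pdcd4*, at -0.87, was the 10th highest of these 34. The difference was present before normalization too, with a median of -0.39 in the 34 probes against 0.49 in all measured probes. The median was -0.94 in the 14 of these probes whose mean signal was within 1 log2 unit of that of *Pdcd4*. Runs of 10 to 15 bases had a median of -0.30 over 54 probes, and runs of 6 to 9 bases one of 0.027 over 823 probes. The limit of 16 bases was chosen after the values were seen.

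Genes with more than 1 probe allowed a look at the same gene without the repeat. Whether those probes read the same transcript was not examined. Of 29 named genes with such a repeat probe, 12 had another measured probe without it. Those 18 other probes had a median log2 ratio of 0.00060, from -0.67 to 0.56. Of them 0 were lower, against 2.88% of all measured probes, and a share of 0 among so few is near that background. For *Itgam* the repeat probe gave -0.94 and the others 0.38 and -0.67. For *Cat* the repeat probe gave -0.51 and the other 0.56. No second probe of *Pdcd4* was on the array, so its ratio without the repeat was not measured, and the part of the repeat in it was not tested.

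**Figure D3:**
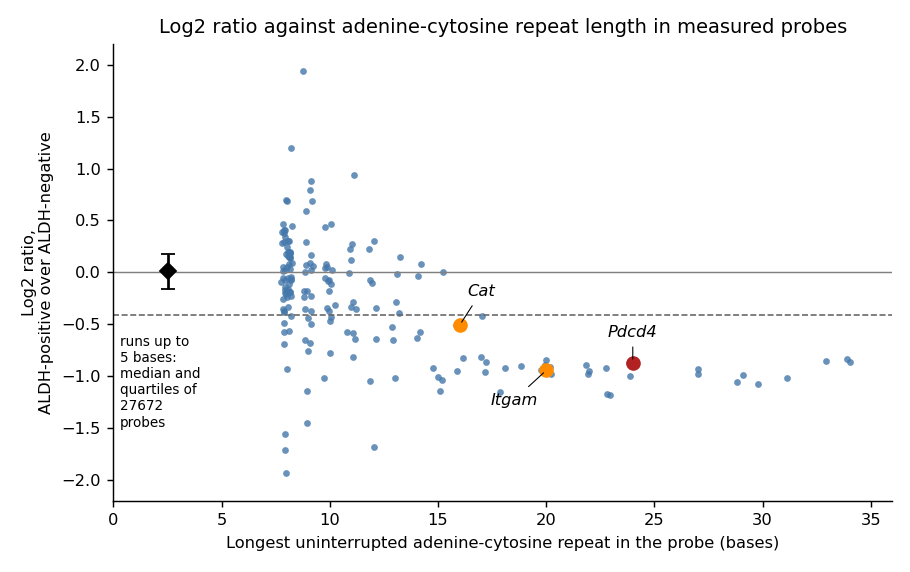
Log2 ratio, ALDH-positive over ALDH-negative, against the length in bases of the longest adenine-cytosine repeat in a probe, 1 point per measured probe with a run of 8 bases or more; the diamond gives the median and quartiles of 27672 probes with runs up to 5 bases, and the dashed line the ratio limit of 0.75. From 16 bases on, all points lie below the line and Pdcd4 (red) lies among them, as do the repeat probes of Itgam and Cat (orange); 1 point with a run of 8 lies below the axis.

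The base composition of probes also moved with the ratios. The median log2 ratio of measured probes was -0.11 with at most 10 thymines, 0.026 with 16 to 20 and 0.068 with 26 or more. The target probes with at most 15 thymines, the second probe of *Mtss1*, that of *Adcy6* and the second of *Fbxw7*, were all below 0. The 3 measured ones with 16 to 20 thymines also lay below 0, between -0.87 and -0.010. Those with 21 to 25 thymines lay between 0.038 and 0.24. Above that, the measured probe of *Foxo3*, with 29 thymines, lay at 0.29, but the dimmer probe of *Cttn*, with 26, lay at -0.16. Over all measured probes, the Pearson correlation of thymine count with log2 ratio was 0.12. With the median of probes of equal thymine count subtracted, the median of the targets was -0.021, beside 0.022 over all genes, and *Pdcd4* stood at -0.90. The part of composition in the smaller ratios was not tested further.

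Further lists of related genes were set beside the targets. Of 11 further reported targets of miR-182, 10 were measured, 0 were lower and 0 higher (2.3% and 1.37% of all measured genes), and the median log2 ratio was 0.12. Shares of 0 among so few genes are near that background. *Epas1*, a hypoxia-inducible factor subunit, had signals of 2951 and 2253 (log2 ratio -0.39) in a spot of the far eighth of the grid, and *Met*, the receptor of hepatocyte growth factor, had -0.22. On the other side, *Thbs1*, the matrix protein thrombospondin 1, had signals of 3727 and 5282 (log2 ratio 0.50) with a Z-score of 2.48, but its ratio of 1.42 did not pass the limit, and *Bcl2l12* had 0.33. With the median over the probes of each gene, the median of these targets was 0.038, beside 0.036 over all measured genes.

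Among 24 relatives of the targets from the same gene families, 15 were measured, 0 were lower and 0 were higher, near the background of 2.3% and 1.37%. Of the 15, 2 lay below 0, against 40.3% of all measured genes, and the median was 0.15. *Adcy3*, another adenylyl cyclase, had the lowest log2 ratio, -0.72 (Z-score -1.88), in a dim spot of the far eighth of the grid, and *Rgs20*, a close relative of *Rgs17*, had -0.082. *Foxo6* had signals of 18.5 and 29.3, well above background only in ALDH-positive cells, which counts it as measured by its brighter array. Its ratio of 1.58 therefore rests on an ALDH-negative signal near background, with an error of 0.39 (log2) and a Z-score of 0.73, and it was not called. *Tfeb*, a relative of *Mitf*, had 0.32.

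Genes that FOXO factors are known to activate were looked at beside *Foxo1* and *Foxo3*. Of 20, 17 were measured, 1 was lower and 0 were higher (background 2.3% and 1.37%). Of the 17, 5 lay below 0, against 40.3% of all measured genes, and the median was 0.12. The lower gene was *Cat*, by its repeat probe. *Insr*, the insulin receptor, had a log2 ratio of -0.25, while its other probes had a median of 0.13. Other genes counted above 0 by their brightest probe had another probe below it. *Cdkn1b* had 0.12 with -0.85 on its other probe, *Bcl2l11* 0.21 with -0.44, and *Cited2* 0.037 with -0.070. With the median over the probes of each gene, the median of these genes was 0.10. *Ccng2*, a cyclin linked to cell cycle arrest, had signals of 51.0 and 75.3 (log2 ratio 0.56). *Txnip*, the thioredoxin-interacting protein, had signals of 9.1 and 25.2 on a probe well above background only in ALDH-positive cells, a bound of at least 1.92-fold with an error of 0.47 (log2) and a Z-score of 1.44. It was not called, and its other probe had -0.40.

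Binding partners and substrates of the target proteins gave 20 measured genes of 21, 1 lower and 0 higher (background 2.3% and 1.37%), with a median of -0.014. Of the 20, 11 lay below 0, against 40.3% of all measured genes. *Jun*, a substrate of FBXW7, was lower, with signals of 10119 and 7546 (log2 ratio -0.42, Z-score -2.34) and a ratio of 0.746, just past the limit of 0.75. *Notch1*, another substrate, had -0.57 and *Gnaz*, a Gα subunit, -0.68, neither with a Z-score of -2 or less. *Rbx1*, the RING subunit of the SCF ligase, had 0.18, and *Eif4a2*, a form of the helicase that PDCD4 binds, had 0.14, with -0.36 on its other probe.

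**Figure D4:**
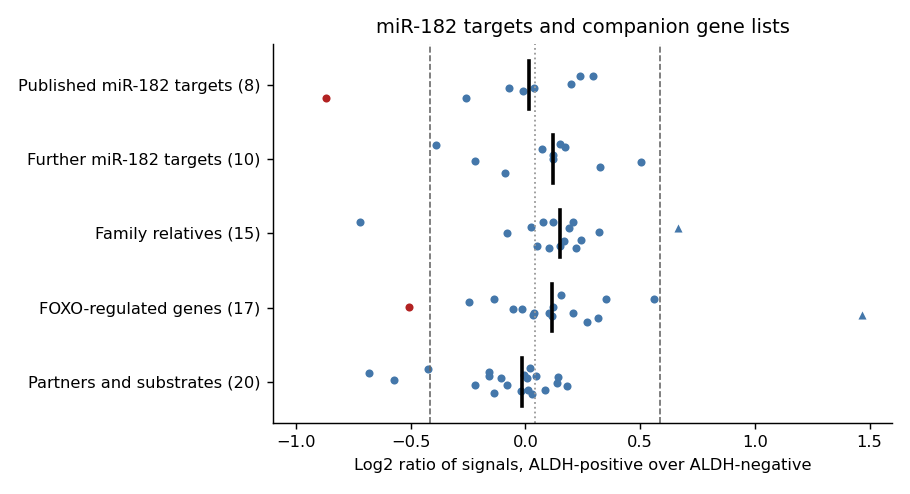
Log2 ratio of each measured gene in the 9 targets and the 4 related lists, with the number measured in parentheses; black bars are list medians, the dotted line is the median of all measured genes (0.042), dashed lines are the ratio limits, triangles were well above background on 1 array only, and red points (Pdcd4 and Cat) are represented by a probe with a repeat of 16 bases or more. Most points of every list lie between the limits.

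Under 10 other ways of obtaining a log2 ratio, *Adcy6* and *Fbxw7* stayed below 0 and *Foxo1*, *Foxo3* and *Mitf* above 0. *Adcy6* ranged from -0.28 to -0.18 and *Fbxw7* from -0.17 to -0.015, while *Foxo1* ranged from 0.18 to 0.31. *Mtss1*, from -0.053 to 0.066, and *Cttn*, from -0.061 to 0.13, changed sign. *Pdcd4* ranged from -0.91 to -0.78 over the 9 others that kept its probe. It was lower in each of those, and not called only with a Z-score taken over all probes, where its Z-score was -1.40. *Clock* ranged from -0.65 to -0.47 and was not called with a 75th percentile shift (Z-score -1.99), with a Z-score against 100 probes on either side (-1.92) or with one over all probes (-0.96).

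**Figure D5:**
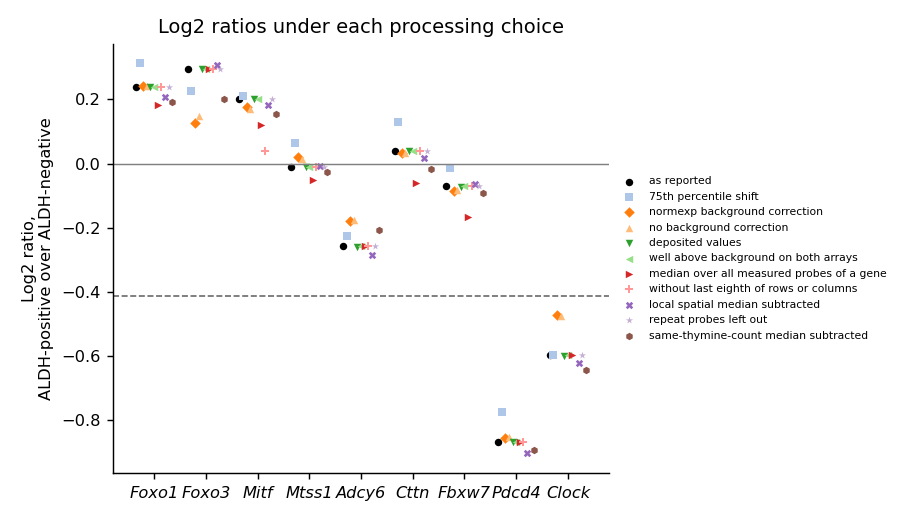
Log2 ratio, ALDH-positive over ALDH-negative, of each measured target and of Clock as reported and under 10 other processing choices, 1 symbol per choice; the dashed line is the ratio limit of 0.75. Pdcd4 and Clock stay below the line in every choice that keeps their probe, and the other 7 genes stay above it.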

How the data were processed

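Total RNA was labelled with Cy3 and hybridised to 1-colour Agilent SurePrint G3 Mouse GE arrays on 1 slide. Per the labels and scanner files, the authors obtained background-subtracted intensities from Feature Extraction, Agilent's scanner software (labels 9.5.1.1, files 10.7.1.1), and deposited a quantile-normalized intensity table, used here as an alternative. The RNA kit is ReliaPrep in the labels and RNeasy in the paper.

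From the processed intensities, control spots were left out. Spots flagged as population or non-uniformity outliers (135 and 116 spots) were left out where their probe had an unflagged spot, and kept otherwise. Values under 1 were set to 1, log2 values of repeated spots were averaged, and both arrays were quantile-normalized (Python 3.11.15, numpy 2.4.6, pandas 2.3.3, and limma 3.58.1 for normexp). The paper gives the limits but not its Z-score, so the one used here is defined in the text. Positions are those of the array files (NCBI37); exon and UTR annotation was not used here. The normalization and selection were also run on simulated data, with planted changes larger than those of the targets and no effect of repeats. That run cannot show how well changes of the size seen in the targets are called.

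Named were all 9 targets, *Clock* and, per related list, genes past the limits and the 2 farthest from 0 on each side. *Itgam*, *Cdkn1b*, *Bcl2l11*, *Cited2* and the marker genes named were chosen after their values were seen. Members and lists were chosen with earlier results of these data known. Of the marker lists, leukocyte genes gave 4 of 7 measured (1 lower), endothelial 2 of 4 (1 lower), fibroblast 3 of 5 (0 lower) and epithelial 6 of 6 (1 higher). Over all measured genes 2.3% were lower and 1.37% higher. The lower leukocyte gene was *Itgam*, by its repeat probe. With 1 array per population nothing was tested, and precision is limited by the number of arrays.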

Additional observations from a re-analysis of the deposited data

How the results depend on the processing

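No paired analysis was possible because each population had a single array. In every setting except 2, 1 target was lower. With a Z-score over all probes 0 targets and 217 genes were lower, and with probes of a long dinucleotide repeat left out, an alternative chosen after seeing the data, 0 of 7 targets were lower. The number of higher genes, 204 as reported, was 111 with normexp and 100 without background correction. The count of lower genes otherwise stayed within 1.5 times of 342. The median of the targets ranged from -0.057, with the median over the probes of each gene, to 0.098, with a 75th percentile shift, where the median of all genes was 0.084. The subtraction of thymine-matched medians was also chosen after seeing the data. *Cat* was not called lower with the median of its probes, with local spatial medians subtracted, with a Z-score over all probes, with a ratio limit of 1.5 both ways or without its repeat probe. *Jun* was not called with the percentile shift, the Z-score over all probes, the ratio limit of 1.5 both ways or the thymine-matched medians. Of the further targets 1 was called higher with the percentile shift, and 1 of the FOXO-regulated genes with the Z-score over all probes. Dim probes such as that of *Foxo3*, and *Rgs17* below background, limit what can be said of those genes.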

Other observations

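Probes with other dinucleotide repeats of 16 or more bases were looked at in the same way. The 9 probes with a repeat of adenine and guanine were all lower in ALDH-positive cells, with a median log2 ratio of -0.76. The 75 probes with a repeat of guanine and thymine had a median of 0.37, with 1 below 0 and 0 called higher, and were bright, with median signals of 15431 and 19911. The 10 probes with a repeat of cytosine and thymine had a median of -0.075, with quartiles of -0.20 and 0.063 and 0 lower. None of the probes of the 9 targets held one of these other repeats, and leaving out all 4 kinds of repeat reduced the lower genes from 342 to 314 and left the higher genes at 204.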
